A study of Mus musculus with 6 samples.

Results

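Among the accessible regions (peaks) that ATAC-Seq found away from promoters in Beko cells, a small set was centred on the exons of messenger RNAs: on coding sequence, on the 3' untranslated region (UTR) after the stop codon, or on the 5' UTR before the start codon. Members were taken from the autosomal peaks that lay more than 1 kb from every annotated transcript start and were CpG-poor, that is, had an observed to expected CpG ratio under 0.6 or a GC content under 50%, and their centre base had to fall in a coding or UTR feature of the GENCODE annotation for the mouse build mm9. The rule found 663 members, which were 2.08% of the 31879 autosomal peaks, 3.30% of the 20087 that were distal and CpG-poor, and part of a list of 32527 peaks in all. Of these, 310 were centred on a coding exon, 347 on a 3' UTR and 6 on a 5' UTR. The distal CpG-poor peaks used for comparison were 9642 centred in introns and 9643 centred between genes.

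Beko is an established mouse pre-T cell line, labelled as progenitor T cell. Of the 6 libraries, 3 came from cells given DAPT for 24 h, a γ-secretase inhibitor (GSI) that blocks Notch activation, and 3 from cells given its solvent DMSO for the same time. The authors merged the peaks of all libraries into the list used here, which holds positions and no value per library, so no replicate error exists and GSI against DMSO was not analysed here. Every interval and p-value below describes counting error or the spread over the 19 autosomes of this list. The labelled cell type was checked with promoters of marker genes: 9 of 10 T-lineage markers had a peak within 1 kb of a start, against 0 of 5 B-lineage markers, 0 of the 4 myeloid markers found and 1 of 5 non-blood markers (Col1a1).

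An exon carries code for protein and, where transcription factors can bind it, may also act as regulatory sequence. Coding exons that also act as enhancers of their own or a neighbouring gene are known from several developmental loci. ATAC-Seq reads where a transposase can enter the chromatin, and cannot tell whether an open exon is bound, transcribed or both. In T-cell progenitors, factors of the E protein, RUNX, ETS, GATA and TCF families hold most distal elements open, and CTCF marks boundaries of chromatin loops. Each family recognises a short DNA core, and these cores can occur within codons.

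Because the E-box core CAGCTG, recognised by E proteins, had the largest difference in share between coding exon peaks and other coding exons, the 30 bases around it are shown for 6 of the 8 widest members in which it lay wholly within coding sequence (NCBIM37, the same build as mm9; each read 5′ to 3′ along the strand of its gene; capitals mark the core).
Il6ra, minus strand, chr3:89675138-89675167: taccgtaaaccaCAGCTGcctgggtgtcag
Nhsl1, plus strand, chr10:18247351-18247380: tggaacccaacaCAGCTGcttcctcttcag
2610015P09Rik, plus strand, chr16:43943872-43943901: gtgtaccagcaaCAGCTGattgagaagcaa
Lgals7, plus strand, chr7:29651174-29651203: ggcggagacgtgCAGCTGcattcagtgaag
Col6a3, minus strand, chr1:92672414-92672443: cccctcctcagcCAGCTGctgctaagccag
Rabgap1l, minus strand, chr1:162237349-162237378: catgttttcagcCAGCTGcatgatgaagac
In these 6 the core lay between 4 bp (Col6a3) and 88 bp (Il6ra) from the centre of its peak.

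The core AGNGGGC, part of the longer CTCF motif, was next. It is shown for the 4 widest coding exon members that held it within coding sequence, where it reads GCCCNCT on the gene's strand.
BC068157, minus strand, chr8:4214160-4214189: cccgcagaatttGCCCACTtcccttgtcac
Kcnh3, plus strand, chr15:99064470-99064499: atgctctccagGCCCTCTattttgtctgct
Il6ra, minus strand, chr3:89675214-89675243: cgtattccttggGCCCACTgaagccgacct
Zfp219, minus strand, chr14:52628517-52628546: acctccggaggaGCCCCCTgcgccacctga
In Il6ra, which encodes the α-chain of the interleukin 6 receptor, the same exon thus held the CTCF core at 13 bp and the E-box core at 88 bp from the peak centre. A RUNX core, TGTGGT, shared bases with that E-box.
Il6ra, RUNX core, minus strand, chr3:89675142-89675171: acaataccgtaaACCACAgctgcctgggtg

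Most coding exon peaks were wider than the exon they were centred on. The uninterrupted stretch of coding sequence under the centre had a median of 168 bp, from 33 to 9310 bp, whereas the peaks had a median width of 473.5 bp, so that a median of 39.7% of a peak was coding. Only 28 of the 310 peaks (9.03%, Wilson 95% interval 6.32 to 12.7) were coding along their whole length, and 114 were coding over more than 50% of it. The longest stretch, 9310 bp, belonged to Cmya5, a muscle gene, whose peak of 1077 bp lay wholly within it. Stretches under 200 bp held 183 members (59.0%), beside 55.3% of the coding bases that were eligible by distance to a start, and stretches of at least 1 kb held 32 (10.3%), beside 15.6% of those bases.

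**Figure D1:**
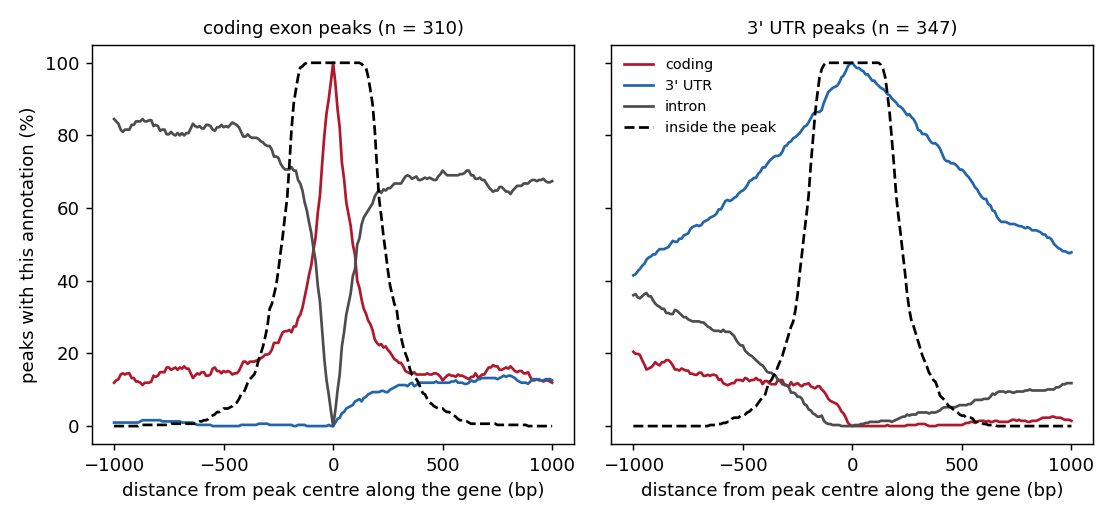
Percent of peaks with coding, 3' UTR or intron annotation (solid lines) at each distance in bp from the peak centre along the gene's strand, for 310 coding exon and 347 3' UTR peaks, with the percent of peaks that still reach that distance (dashed). Coding annotation falls off within the width of the coding exon peaks and gives way to intron, whereas 3' UTR annotation extends past most 3' UTR peaks.

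Within genes, coding exon members showed no preference for the end of the coding sequence that exceeded the spread over autosomes. The last coding exon held 69 of the 310 (22.3%, Wilson 18.0 to 27.2). Averaged over autosomes the share was 23.3% ± 11.9 (SD, n = 19), against 25.2% of eligible coding bases (permutation p = 0.513, adjusted p = 0.642). The first coding exon held 13 members, which the distance rule limits, since first exons lie close to starts. Of these 13, 7 lay in transcripts with 1 coding exon and were also counted in the last coding exon. The median distance from a coding exon peak to the nearest start of any transcript was 8093 bp, 130 were over 10 kb away, and for 112 the nearest start belonged to another gene than the exon's own.

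How often an exon carried a distal peak was set against intron and intergenic sequence, counting peak centres per Mb of bases more than 1 kb from every start. Peaks had to be that far by their edge. Bases just beyond 1 kb were thus counted although they could not hold a centre. The density was 12.2 ± 2.88 per Mb in coding sequence (mean ± SD over 19 autosomes), 14.6 ± 5.69 in 3' UTRs, 11.2 ± 2.22 in introns and 7.31 ± 1.87 between genes. Coding sequence therefore exceeded intergenic sequence 1.66-fold, in 18 of 19 autosomes (adjusted permutation p = 8.0e-05, two-sided paired permutation over autosomes, as for all tests below). Against introns the ratio was 1.09, higher in 14 of 19 autosomes, and the difference did not exceed the spread (adjusted permutation p = 0.171). The 3' UTR exceeded introns 1.30-fold (14 of 19 autosomes, adjusted permutation p = 0.00433) and intergenic sequence 1.99-fold (17 of 19, adjusted permutation p = 4.0e-05, from the smallest p that 100000 resamplings can give). The CpG rule bears on this comparison: it left out 60 coding exon peaks and 12 3' UTR peaks, and without it coding sequence exceeded introns 1.27-fold (adjusted permutation p = 4.9e-04). Peaks of at least 500 bp gave 1.20 for the 3' UTR against introns (adjusted permutation p = 0.204), and without chromosome 11 coding sequence exceeded introns 1.13-fold (adjusted permutation p = 0.0358). With only bases farther from starts in the denominator, each density comparison kept its direction and side of the threshold.

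**Figure D2:**
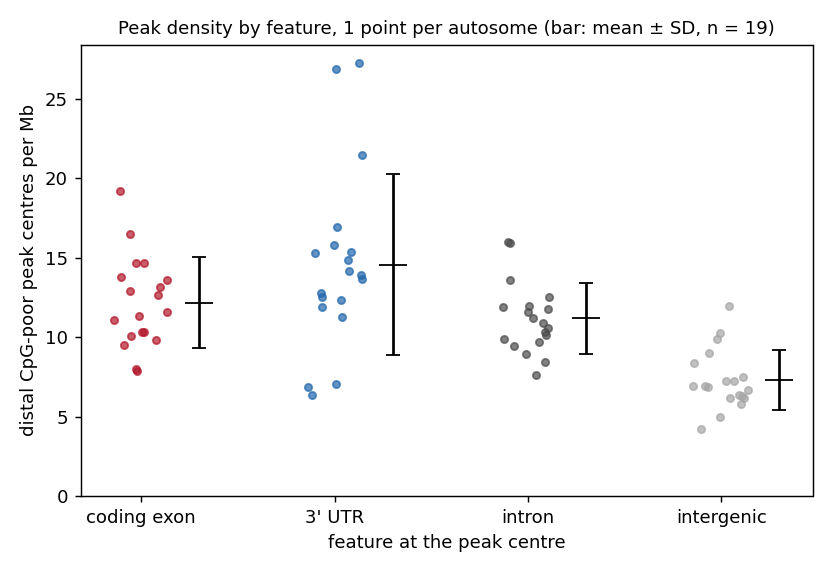
Distal CpG-poor peak centres per Mb (y axis) by the feature at the centre (x axis), with 1 point per autosome and black bars for the mean ± SD over 19 autosomes. Coding exon and 3' UTR points lie mostly above the intergenic points, while coding exon and intron points overlap.

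Densities are also given by distance from the nearest start, whose part in the differences above was not tested. From 2 to 5 kb of a start, coding sequence held 12.0 centres per Mb (Poisson 95% interval 9.35 to 15.2), below the 14.2 of introns (13.5 to 14.9). Intergenic sequence held 12.7 there (11.9 to 13.5). From 5 to 10 kb coding sequence held 13.3 (10.3 to 16.8), beside 14.8 in introns (14.1 to 15.5) and 14.0 between genes (13.3 to 14.7). In both ranges the coding value was thus below the intergenic one, with overlapping intervals. From 10 to 50 kb, coding sequence held 13.3 (11.0 to 15.9) beside 12.1 in introns (11.7 to 12.5) and 10.1 between genes (9.85 to 10.4). Beyond 50 kb the values were 7.01 (3.83 to 11.8), 5.37 (5.06 to 5.69) and 3.06 (2.93 to 3.20) from 14 coding exon peaks. The 3' UTR held 16.1 per Mb (12.9 to 19.9) at 2 to 5 kb and 15.8 (12.7 to 19.4) at 5 to 10 kb. Its values were 14.2 (11.8 to 17.0) at 10 to 50 kb and 7.45 (4.07 to 12.5) beyond 50 kb. Density in introns and between genes was thus lowest beyond 50 kb. In each distance range, the intervals of coding sequence and of the 3' UTR each overlapped that of introns.

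Densities were then compared between genes with and without an accessible promoter. A gene was said to have a promoter peak when any peak lay within 1 kb of one of its own starts, as is usual for active genes. In introns, distal peaks were 3.29-fold denser in genes with a promoter peak (18.0 ± 3.06 per Mb) than in genes without (5.47 ± 1.35), in 19 of 19 autosomes (adjusted permutation p = 3.0e-05). In coding sequence the corresponding densities were 14.0 ± 4.06 and 9.99 ± 4.89, a ratio of 1.40 (14 of 19 autosomes, adjusted permutation p = 0.0248). In 3' UTRs they were 16.0 ± 5.23 and 12.7 ± 7.99, a ratio of 1.26 (15 of 19, adjusted permutation p = 0.0368), which is close to the threshold, and leaving out 1 autosome at a time gave adjusted permutation p from 0.0042 to 0.0665. At 5 to 50 kb from the nearest start this 3' UTR ratio was 1.33 and no longer past the threshold (adjusted permutation p = 0.0734). This choice of comparison was made after the densities by feature had been seen.

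The gain with a promoter peak was itself smaller in exons than in introns. On the log2 scale it was 0.46 ± 0.83 in coding sequence and 1.71 ± 0.28 in introns over 18 autosomes, and was the larger in coding sequence in 2 of them (difference of -1.25, adjusted permutation p = 1.3e-04). Chromosome 16 had no coding exon peak in genes without a promoter peak (0, against 9 in genes with one), so its gain had no finite value and it was left out, an omission that depends on the outcome and removes a large gain. With 0.5 peaks added to each count all 19 autosomes could be used, and the difference was -1.15, with a larger gain in coding sequence in 3 autosomes (adjusted permutation p = 6.7e-04). In 3' UTRs it was 0.47 ± 0.64, lower than in introns in all 19 autosomes (difference of -1.27, adjusted permutation p = 3.0e-05). The order of exons and introns turned with the state of the promoter. In genes with a promoter peak, coding sequence had 0.779 times the density of introns (adjusted permutation p = 0.00205), and in genes without one it had 1.83 times the density (15 of 19 autosomes, adjusted permutation p = 0.00153). For 3' UTRs these ratios were 0.891 (adjusted permutation p = 0.0790, or 0.0198 without chromosome 17 and 0.0384 without chromosome 19) and 2.32 (18 of 19, adjusted permutation p = 3.0e-05). In absolute numbers, 117 coding exon peaks and 110 3' UTR peaks lay in genes without a promoter peak. The difference in gain was also present among bases 5 to 50 kb from the nearest start (-1.19 for coding sequence over the 16 autosomes with peaks in both groups of genes, adjusted permutation p = 4.8e-04, or -0.89 over 19 autosomes with 0.5 peaks added, adjusted permutation p = 0.0107, and -0.95 for 3' UTRs, adjusted permutation p = 3.1e-04). Without the CpG rule the deficit of coding sequence in genes with a promoter peak was no longer past the threshold (0.881, adjusted permutation p = 0.0656), nor were the gains in coding sequence (1.28, adjusted permutation p = 0.0861) and in 3' UTRs (1.23, adjusted permutation p = 0.0681). Gene length was not matched between the groups of genes, and its part was not tested.

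**Figure D3:**
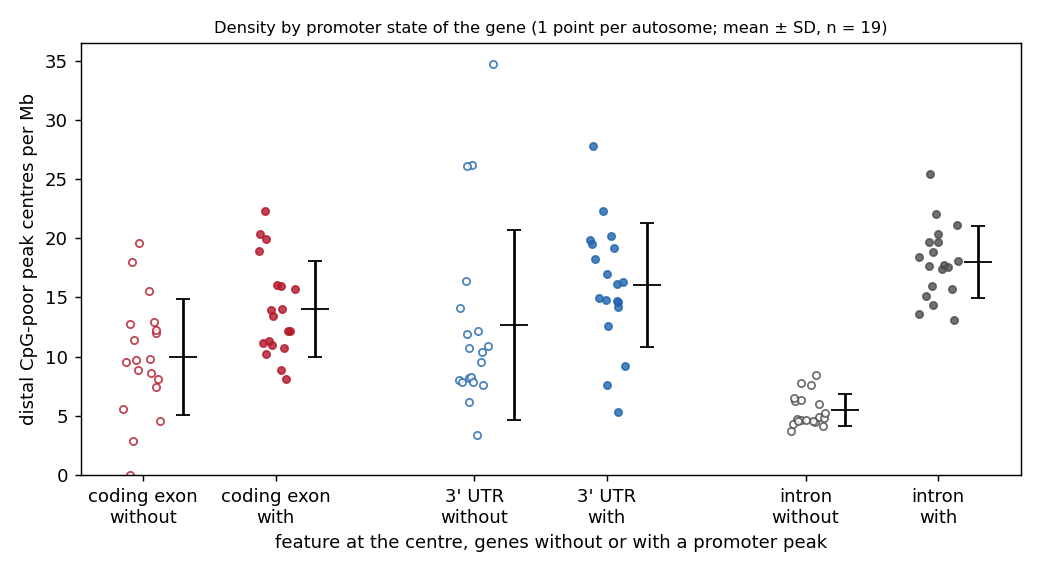
Distal CpG-poor peak centres per Mb (y axis) in coding exons, 3' UTRs and introns of protein-coding genes without (open points) and with (filled points) a promoter peak, with 1 point per autosome and bars for the mean ± SD (n = 19). Intron densities of the 2 kinds of genes lie far apart (5.47 and 18.0), whereas those of coding exons (9.99 and 14.0) and 3' UTRs (12.7 and 16.0) overlap.

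Counted by gene rather than by base, no difference between member genes and other genes with distal peaks passed the threshold. A promoter peak was present in 190 of the 304 genes with a coding exon member (62.5%, Wilson 56.9 to 67.8) and in 235 of the 345 with a 3' UTR member (68.1%, 63.0 to 72.8). Among the 3998 genes with an intron peak and no member the share was 67.3%, and among all 21418 autosomal protein-coding genes it was 47.6%. Neither member group differed from the intron group beyond the spread over autosomes (differences of -3.33 and 0.801 percentage points, adjusted permutation p = 0.547 and 0.714). Another peak lay within 5 kb of 95 coding exon peaks (30.6%) and 120 3' UTR peaks (34.6%), beside 28.2% of intron peaks, and these differences were not past the threshold (adjusted permutation p = 0.547 and 0.121), although without chromosome 16 that of 3' UTR peaks was (8.52 percentage points, adjusted permutation p = 0.0457).

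No difference in width between exonic and other distal peaks was detected beyond the spread over autosomes. The median width per autosome averaged 473 ± 44.3 bp for coding exon, 454 ± 55.2 bp for 3' UTR, 460 ± 10.3 bp for intron and 465 ± 8.24 bp for intergenic centres. All 4 differences lay between -11.5 and 12.6 bp, with SDs over autosomes of 41.6 to 56.1 bp, and none was past the threshold (adjusted permutation p from 0.581 to 0.583). Without the CpG rule coding exon peaks were wider than intron peaks by 27.6 bp and than intergenic peaks by 20.6 bp, which did not pass the threshold either (adjusted permutation p = 0.0537 and 0.141). Coding exon peaks ranged from 243 to 1773 bp and 15 were wider than 1 kb, as were 10 of the 3' UTR peaks, which ranged from 252 to 1300 bp.

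**Figure D4:**
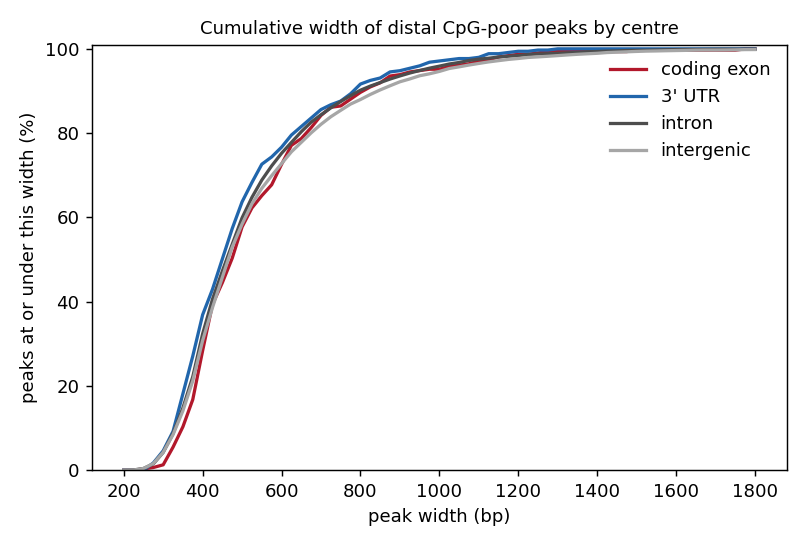
Cumulative percent of distal CpG-poor peaks (y axis) at or under each width in bp (x axis), by the feature at the peak centre. The 4 curves run close together, with medians of 473.5 bp for coding exon, 450 bp for 3' UTR, 461 bp for intron and 465 bp for intergenic peaks.

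The widest coding exon peak was in Notch1, which encodes the receptor whose activation GSI blocks. It spanned 1773 bp of the last of 34 exons (chr2:26315071-26316843, minus strand), 80.4% of it coding, and lay 1424 bp from the nearest annotated start. This exon encodes the end of the receptor, including the PEST region that limits its lifetime. A second member, of 788 bp, lay 482 bp away in the Notch1 3' UTR (chr2:26313801-26314588), wholly within the UTR. Of the 9 cores searched, the central 200 bp of the coding exon peak held the TCF core CTTTGA alone, and those of the 3' UTR peak held the RUNX core alone.

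The next widest coding exon peaks belonged to genes of unrelated function. They were in BC068157 (1499 bp, wholly coding), Lyl1 (1253 bp, its last exon), Kcnh3 (1231 bp), Tsks (1187 bp), Setd4 (1159 bp), Vps45 (1137 bp), Adcy1 (1135 bp), Il6ra (1101 bp, its last exon) and Fabp4 (1082 bp). Lyl1 encodes a basic helix-loop-helix factor of blood progenitors, and a second gene spanned the centre of its peak. Kcnh3 encodes a potassium channel, Tsks a testis protein, Vps45 a vesicle sorting protein, Adcy1 a neuronal adenylate cyclase and Fabp4 a fatty acid carrier of fat cells and macrophages. Of these 10 genes including Notch1, 5 had a promoter peak (Notch1, Kcnh3, Setd4, Vps45 and Adcy1). In Setd4, Vps45 and Fabp4 coding sequence made up under 10% of the peak, at 6.99%, 9.50% and 9.43%, so the rest of these peaks lay outside coding sequence.

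The sequence of coding exon peaks differed from that of other coding exons. In the central 200 bp, CAGCTG occurred in 108 of 310 members (34.8%, Wilson 29.7 to 40.3) and in 14.9% of 137653 windows of equal length at the middle of peak-free coding exons, with a higher share in 19 of 19 autosomes (mean difference of 21.0 ± 11.6 percentage points, adjusted permutation p = 9.0e-05). AGNGGGC occurred in 27.1% and 9.71%, higher in 18 of 19 autosomes (adjusted permutation p = 9.0e-05). The RUNX core TGTGGT occurred in 27.1% and 14.4% (adjusted permutation p = 0.00798), and the ETS core CAGGAA in 35.5% and 23.3% (adjusted permutation p = 0.0149). GGGCGG, the core of SP factors, occurred in 10.0% and 4.01% (adjusted permutation p = 0.0399, or 0.0246 to 0.0801 with 1 autosome left out at a time). All cores were searched on both strands, and where cores overlapped each was counted. Of the 137653 windows at other exons, 20592 were in coding stretches of at least 200 bp. The rest also held bases outside the coding stretch. All windows at other exons lay more than 1 kb from every start and met the CpG rule within their own 200 bp. Members met that rule over the whole peak. CpG-rich windows were thus left out of the other exons but could remain among members. The part of this in the shares, that of GGGCGG among them, was not tested.

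Base composition moved with these shares, as the mean GC content of the 200 bp windows was 55.4% in coding exon members and 48.2% at the other coding exons. With the other exons weighted to the GC of the members, CAGCTG kept a share of 35.7% against 20.4% (17 of 19 autosomes, adjusted permutation p = 7.2e-04) and AGNGGGC 26.8% against 15.2% (adjusted permutation p = 0.00324). RUNX and ETS cores also stayed past the threshold (adjusted permutation p = 0.0158 and 0.0307), CTTTGA passed it (18.8% against 12.0%, adjusted permutation p = 0.0445), and GGGCGG did not (9.11% against 7.47%, adjusted permutation p = 0.587). With the central 100 bp, CAGGAA and GGGCGG were no longer past the threshold (both adjusted permutation p = 0.0578).

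The core of RBPJ, TGGGAA, through which Notch acts on DNA, was not among the enriched cores. It occurred in 42 coding exon members (13.5%, Wilson 10.2 to 17.8), in 17.2% of the other coding exons and in 16.1% of intron peaks, and neither difference was past the threshold (adjusted permutation p = 0.132 and 0.209). Without chromosome 12 the difference from other coding exons was -5.84 percentage points (adjusted permutation p = 0.0294). At RBPJ sites that lost binding upon GSI the paper found the form TGRGAA, where R is either purine. Only TGGGAA was searched here. The GATA core AGATAA occurred in 5.81% of members and 9.04% of other exons, and the AP-1 core TGANTCA in 3.55% and 4.88%. Without chromosome 9 or 10 the lower share of AGATAA against other exons passed the threshold (adjusted permutation p = 0.0489 and 0.0309), but at equal GC content the difference had the opposite sign (5.86% of members and 4.42% of other exons, adjusted permutation p = 0.576).

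Coding exon peaks were also set against intron peaks. TGTGGT occurred in 27.1% of coding exon and 27.5% of intron peaks (adjusted permutation p = 0.714), and CAGGAA in 35.5% and 35.1% (adjusted permutation p = 0.821). Of the 9 cores, 2 passed the threshold: CAGCTG was higher (34.8% and 27.1%, adjusted permutation p = 0.0149) and TGANTCA lower (3.55% and 6.16%, adjusted permutation p = 0.0335, or 0.0112 to 0.0608 with 1 autosome left out). At equal GC content neither did (adjusted permutation p = 0.213 and 0.0628), and with the central 100 bp CAGCTG did not (adjusted permutation p = 0.0578). Without chromosome 16 AGNGGGC passed it as well (adjusted permutation p = 0.0254). None of the 9 cores was found in 12.9% of coding exon members, close to the 13.7% of intron peaks and under the 28.9% of other coding exons.

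**Figure D5:**
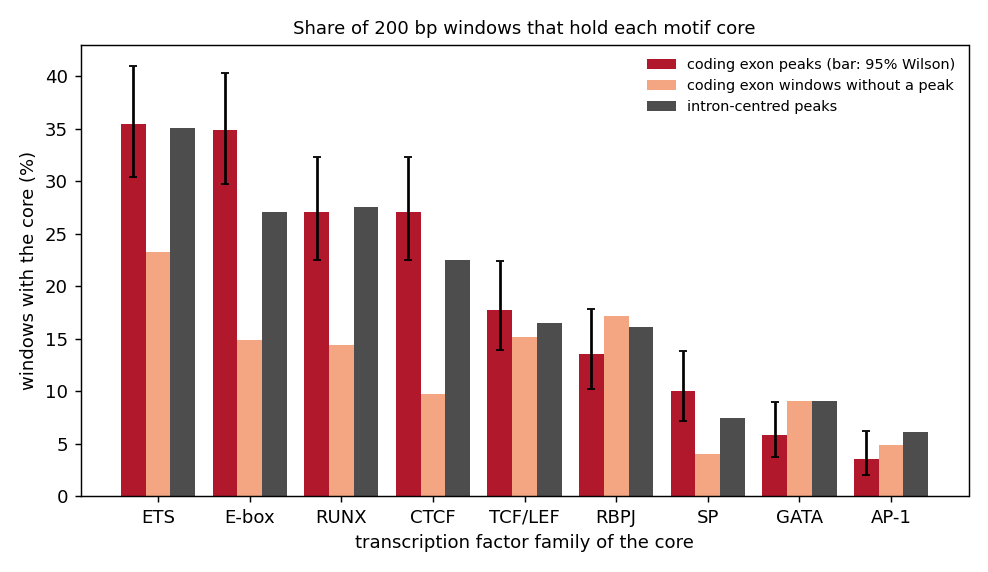
Percent of 200 bp windows (y axis) that hold the core of each transcription factor family (x axis), in 310 coding exon peaks with Wilson 95% intervals, in coding exon windows without a peak, and in intron-centred peaks. E-box shares are 34.8%, 14.9% and 27.1%, and RBPJ shares 13.5%, 17.2% and 16.1%.

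Where the cores lay was read beside the share of coding bases. Of 133 matches to CAGCTG in the central windows, 104 (78.2%) were wholly coding and 20 wholly outside coding sequence, while coding bases made up 71.0% of these windows. For AGNGGGC 60 of 95 matches were wholly coding (63.2%), for CAGGAA 87 of 130 (66.9%) and for TGTGGT 71 of 96 (74.0%). AP-1 had the lowest share, with 4 of 11 matches wholly coding (36.4%). These shares lay on either side of the 71.0% that coding bases made up, and no test was made of them. They count whole matches, whereas the 71.0% counts bases. A match across an exon edge lowers only the share of matches, so the values are not like for like. E-box, RUNX and ETS cores occurred together in 20 members, and 106 had none of the 3.

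The 3' UTR peaks fitted within their feature, unlike those on coding exons. The UTR stretch under the centre had a median of 2038 bp, beside 2064 bp by base over eligible 3' UTRs, and 244 of the 347 peaks (70.3%, Wilson 65.3 to 74.9) lay wholly in it. Centres were spread along the UTR, at a median of 864 bp past the stop codon and 863 bp before the transcript end, with 115 within 500 bp past the stop and 109 within 500 bp of the end. For 177 of them (51.0%) the nearest start belonged to another gene, and in 44 more than 1 gene spanned the centre. The widest were in B4galt5 (1300 bp, chr2:167124768-167126067), a galactosyltransferase gene, Zmiz2 (1234 bp), Wdtc1 (1183 bp), Slc37a2 (1156 bp), a sugar phosphate transporter gene, Vamp1 (1102 bp), which encodes a vesicle fusion protein, and St3gal1 (1102 bp), a sialyltransferase gene. Of these 6 genes, St3gal1 alone lacked a promoter peak.

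Motif cores in 3' UTR peaks are given as a description. CAGCTG occurred in 25.4% of the members and in 10.2% of 22045 peak-free 3' UTR windows, AGNGGGC in 28.8% and 8.73%, CAGGAA in 35.7% and 21.3%, and TGTGGT in 24.8% and 14.9%. AGATAA occurred in 3.75% and 11.2%, and TGGGAA in 15.9% and 17.9%. Mean GC content was 53.7% in the members and 44.4% in the windows, and its part in these shares was not tested. As for coding exons, the CpG rule was applied to each peak-free window itself but to the whole peak of a member.

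The 6 members on 5' UTRs lay in exons downstream of the first exon of their transcript. They were in 1700036A12Rik (1243 bp), Fam107b (630 bp), Fam113b (535 bp), Ifit2 (481 bp), an interferon-induced gene, Fam163a (433 bp) and Pld3 (307 bp), a phospholipase D family gene. All but Pld3 were over 10 kb from every start, with Fam113b at 113722 bp. The pooled density was 11.6 per Mb (Poisson 95% interval 4.25 to 25.2), an interval that covers the densities of coding sequence, 3' UTRs, introns and intergenic sequence.

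Member genes were counted in lists of T-cell and regulatory genes, against 1.42% of all autosomal protein-coding genes with a coding exon member, 1.61% with a 3' UTR member and 0.0280% with a 5' UTR member. Of 39 T-cell receptor signalling and surface genes, 2 had a coding exon member and 3 a 3' UTR member, while 35 (89.7%) had a promoter peak. Among the coding exon peaks was that of Nfatc3, a calcium-responsive factor (exon 8 of 10, 484 bp). The 3' UTR peaks included those of Cd3d (929 bp) and Cd3e (513 bp), genes close to each other that encode subunits of the CD3 complex. Cd3d had no promoter peak by the 1 kb rule.

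Among 46 matched lymphoid transcription factor genes, 2 had a coding exon member, namely Stat3, a cytokine-activated factor (810 bp in its last exon), and Mef2d (exon 4 of 12, 521 bp), and 2 a 3' UTR member, namely Zbtb7b, which directs CD4 T-cell fate (740 bp), and Irf4 (374 bp). The Stat3 peak was 6.54% coding, the lowest value of all coding exon members, and 47.7% 3' UTR. Of 42 Notch pathway genes, 2 had a coding exon member (Notch1 and Notch3, the latter in exon 24 of 33 with 399 bp) and 2 a 3' UTR member (Notch1 and Dtx1, a ubiquitin ligase gene, 320 bp). Of 54 matched chromatin regulator genes, 1 had a coding exon member (1.85%) and 0 a 3' UTR member. These counts are small, and no test was made of them.

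Gene families were counted in the same way. Of 362 zinc finger genes named Zfp, 3 had a coding exon member (0.829%) and 4 a 3' UTR member. Of 343 solute carriers, 7 and 11 did (2.04% and 3.21%). Collagen genes held 3 coding exon members among 42 (7.14%: Col5a1, Col6a3 and Col6a6) and 0 on 3' UTRs. Protocadherins held 1 of each among 34, and 0 of the 40 Hox cluster genes held a member.

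The members fell in 642 genes, 12 of which had members on both coding exon and 3' UTR, and no gene had more than 2. Of the 28 genes with 2 members, 8 had both on coding exons (1200009I06Rik, 5430411K18Rik, Akap12, Def6, Kcnh3, Med12l, Sec31b and Zan) and 7 both on the 3' UTR (3930402G23Rik, 4632428N05Rik, Dpysl5, Fibcd1, Itpkb, Mgll and Srcin1). The 12 with 1 of each were 4933426M11Rik, Ciapin1, Clip2, Dpp4, Etv3, Grik4, Notch1, Pex6, Slc26a8, Slc43a2, Syt13 and Vcl, and Fam163a had members on its 5' and 3' UTR. Def6, which encodes a lymphocyte guanine nucleotide exchange factor, and Itpkb, an inositol kinase gene needed for thymocyte development, are known for roles in T cells. The 28 genes were not counted by function, and they also include Kcnh3, the potassium channel gene named above.

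A few members could not be placed with certainty. Sequence nearly identical to the peak also occurred at another place in the genome for 3 coding exon peaks (Vmn2r96, Vmn2r97 and Tnxb) and for 7 3' UTR peaks, among them those of Orai2 and of its pseudogene Orai2-ps. In 19 coding exon and 44 3' UTR peaks more than 1 gene spanned the centre, so the exon and an overlapping gene share the peak. At the limits of the rule, the member closest to a start lay 1029 bp away and the closest peak left out 982 bp, and the CpG ratios next to the limit were 0.596 and 0.601.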

How the data were processed

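The 6 ATAC-Seq libraries, 3 from Beko cells given GSI for 24 h and 3 from cells given DMSO, were made with a commercial kit. Groups follow the labels. The labels give the concentration of DAPT in another unit than the study's methods, so it is not printed. Per the labels and the study's methods, the authors aligned reads to mm9 with HISAT2 2.2.1, with a limit of 1 alignment per read, dropped duplicates (Picard), ran MACS2 on each library, merged replicates through MSPC, and retained regions seen in at least 3 libraries and outside the blacklist. The deposited list gives chromosome, start and end in bp (unit: other), and its score column is 0 for every peak and carries no measurement. Any shift of reads for the transposase is not given in the sources used here. Read depth per library was not used, since the list has no value it could bear on.

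Starts were read as counted from 0 and are printed counted from 1. Bases were assigned on NCBIM37 with the GENCODE annotation made for mm9 in the order coding, 3' UTR, 5' UTR, other exon, intron, intergenic. Analyses used Python 3.11.15 with numpy 2.4.6, scipy 1.17.1, pandas and matplotlib, and minimap2 for copies (at least 80% of the peak at 95% identity). Each of 19 autosomes gave 1 value per group, compared with a two-sided paired sign-flip permutation test (100000 resamples) and Benjamini-Hochberg adjustment over 4 density, 4 width, 18 motif, 5 gene and neighbour, and 9 promoter tests. The threshold was 0.05. Intervals are Wilson or exact Poisson at 95% and cover counting error only. Genes without a promoter peak may include genes whose peak missed the call. Simulated data were used for coding against intron density, coding exon width, a planted E-box core and the permutation test itself. These simulations left out the CpG rule and the edge distance of peaks to starts. The promoter, gene, neighbour and equal GC comparisons were not simulated. A count or log-scale test of GSI against DMSO needs values per library and was not made. Paralogous exons can share reads, since 1 alignment per read was kept.

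Members, gene lists and motif cores were chosen with earlier results of these data known. Named were the 10 widest coding exon, 6 widest 3' UTR and all 5' UTR members, genes with 2 members (all 28, since they tied), members in the lists of named genes (some genes and 2 of the sequences are not reported here) and the core with the largest gain. Cmya5, the sequences' genes and members at the limits were named after seeing their values. Alternatives were peaks of at least 500 bp, 2 kb from starts, no CpG rule, 50% of the peak in the feature, no copies, 100 bp windows, equal GC, Fisher's exact test, other neighbour and promoter distances, 1 transcript per gene and leaving out each autosome, and, added after the data had been seen, another denominator, longer exons, 1 gene per member and the promoter state with its own alternatives, including 0.5 peaks added to each count.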

Additional observations from a re-analysis of the deposited data

How the results depend on the processing

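No paired analysis was possible because libraries have no separate values. Density, width, gene, neighbour, motif and promoter-state comparisons were recomputed. Of these values, 865 kept their direction and side of the threshold or, for counts of cores, stayed within 1.5 times. Another 42 lost their call, 12 gained one, 15 changed direction and 11 counts of cores moved by over 1.5 times. Most of the recomputed values left out 1 autosome, and the 865 include differences that were not past the threshold in either setting. When the feature had to cover at least 50% of the peak, the density of coding sequence fell to 0.471 times that of introns and 0.719 times intergenic sequence, which follows from the construction, since an exon shorter than that share of the peak cannot qualify. The width difference of coding exon and intergenic peaks was then -2.63 bp. At 500 bp or wider, 3' UTR density was 1.20 times that of introns and width differences were -12.2 bp (coding exon and intergenic) and 13.1 bp (3' UTR and intron). Without the CpG rule coding sequence exceeded introns 1.27-fold, and the promoter-state ratios were 1.28 (coding), 1.23 (3' UTR) and 0.881 (coding against intron with a promoter peak). At 5 to 50 kb the 3' UTR ratio was 1.33 and lost its call (adjusted permutation p = 0.0734), as it did in 12 of its recomputed values, against 9 that kept it. Without the CpG rule coding exon peaks exceeded intron peaks by 27.6 bp (adjusted permutation p = 0.0537). The causes of these changes were not tested. For the 50% rule the reason given above is an argument from the construction.

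Motif differences from intron peaks that changed direction were -2.53 percentage points for CAGGAA (100 bp), and 0.495 for TGTGGT and -3.86 for GGGCGG (equal GC). AGATAA against exon windows became 1.44 (equal GC). Cores past the threshold against intron peaks numbered 1 (100 bp), 0 (equal GC) and 1 (Fisher's exact test). With 1 autosome left out, the ranges were 1.06 to 1.13 for coding against intron density, 1 to 3 for cores against intron peaks, -0.0817 to 1.99 points for promoter peaks of 3' UTR genes, 5.95 to 8.52 points for neighbours of 3' UTR peaks, -0.796 to 3.19 points for CAGGAA and -2.66 to 0.313 points for TGTGGT against intron peaks, 1.22 to 1.37 for 3' UTRs with against without a promoter peak, and 0.859 to 0.916 for 3' UTRs against introns in genes with one. Merged peaks limit these results to presence and width, and 6 peaks limit the 5' UTR to an interval.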
